A study of Gallus gallus with 2 samples.

Results

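The genes described here are the chemokines, the interleukins and their receptors in the peritoneum of the chicken. They were taken as every row of the gene list whose symbol begins with *CCL*, *CXCL*, *CCR*, *CXCR* or *XCR* followed by a further character, or with *IL* followed by a digit. This rule found 85 of 29558 rows, namely 17 chemokine ligands, 14 chemokine receptors, 22 interleukins, 28 interleukin receptor chains and 4 related genes (*IL1RAPL1*, *IL1RAPL2*, *IL4I1* and *IL17REL*). *IL8L1* and *IL8L2* carry an interleukin symbol but were counted as chemokine ligands, which is what they are. Of the 85 genes, 80 were matched by symbol to the RefSeq gene table of GRCg7b.

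The study examined hyperpigmentation of the visceral peritoneum (HVP), a dark colouring of the membrane over the abdominal organs that lowers the value of the carcass, in Huiyang Bearded chickens, a Chinese yellow-feathered breed. Single cells were profiled at 40 days of age in 1 library from birds with HVP and 1 library from birds with a normal peritoneum, and the tissue of 10 birds was pooled for each. The tissue was minced, digested with collagenase, sieved and freed of red cells before loading on the 10x Genomics 3′ platform, so that the cells are those that survived dissociation. With 1 pooled library per group there is no replicate, differences between birds cannot be seen, and the intervals given throughout cover counting error only.

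The library labelled HVP held 7157 barcodes, of which 6829 had more than 500 genes and were kept, with a median of 4853 transcript molecules (UMIs) per cell. The library labelled Normal held 6981 barcodes, of which 6656 were kept, with a median of 3400.5 UMIs. The sample titles and the names of the deposited files disagree on which library is which, since each library's files carry the name of the other group. The titles are followed here, the phrase "the library labelled" is used throughout, and every difference between the libraries would turn around if the file names were right. Only 13 of the kept barcodes occurred in both libraries. The doublet caller marked 5 barcodes in the library labelled HVP and 155 in that labelled Normal. The rate in the former, 0.0699%, is too low for the caller to have worked there, so doublets were kept.

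Chemokines are small secreted proteins that steer the movement of cells along a gradient, and they act through receptors of the G-protein-coupled family on the cells that move. Interleukins are secreted signals between leukocytes and between leukocytes and tissue cells, and most are read by receptors built from a ligand-specific chain and a chain shared by several interleukins. In serous membranes such as the peritoneum, resident macrophages, mesothelial cells, vessels and stroma are all known sources of such signals.

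Cells were clustered in each library with all 85 genes left out of the clustering, and clusters were named from marker genes. In all, 15 classes occurred in both libraries. The numbers of cells in the library labelled HVP and in that labelled Normal were 1587 and 1465 for fibroblasts, 711 and 1088 for blood endothelial cells, 660 and 569 for pericytes, 378 and 708 for smooth muscle cells and 894 and 508 for tenocytes. The leukocytes were few, with 262 and 174 myeloid cells and 101 and 216 T cells. Smaller classes were mesothelial cells (106 and 94), melanocytes (106 and 79), Schwann cells (71 and 50), lymphatic endothelial cells (35 and 26) and satellite cells (33 and 51). A class of endothelial cells with high *TCF24*, a stromal class with high *FSHR* and *NELL1*, and a class with high *HS3ST3B1* and *APOC3* that met no marker list are called by those genes, which were chosen after their values were seen. In the library labelled Normal, 2 leukocyte clusters stayed unnamed, a shallow cluster of 107 cells with a median of 1016 UMIs and 8 raised myeloid markers, and a cluster of 66 cells with myeloid, T cell and B cell markers together.

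Levels are given as CPM, the UMIs of a gene in all cells of a class for every 1000000 UMIs of that class, followed by the exact 95% Poisson interval. The platform reads the 3′ end of each transcript once, so the counts were not divided by transcript length, and an order between genes is an order of counted 3′ ends. Values are given first for the library labelled HVP and then for that labelled Normal unless stated otherwise.

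Of the 85 genes, 81 had at least 1 UMI in the kept cells, 50 had 100 or more over both libraries, 16 had between 1 and 19, and 4 (*IL17A*, *IL9*, *IL20RB* and *CCR10*) had none. Together they took 0.118% of all UMIs in the library labelled HVP and 0.149% in that labelled Normal. Interleukin receptor chains held the most UMIs over both libraries (44460), followed by chemokine ligands (22286), interleukins (7066) and chemokine receptors (7003). The interleukins best known from T cells were at or near 0, although T cells were present. *IL2* had 0 and 3 UMIs, *IL4* 3 and 2, *IL5* 1 and 2, *IL10* 4 and 1, *IL13* 2 and 3, *IL17F* 4 and 3, *IL21* 6 and 5, and *IL22* 4 and 0. *IL3* had 0 and 1 UMIs, *IL26* 2 and 0, *IL20* 13 and 12, and the subunit genes of IL12, *IL12A* and *IL12B*, had 12 and 4 and 4 and 4. The 4 genes without a UMI were not detectable at this depth.

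For each gene with at least 20 UMIs in a library, the class with the highest CPM was taken as its leading class. Leukocytes led most often. Of 56 genes with a leading class in the library labelled HVP, 21 were led by myeloid cells and 11 by T cells, and of 60 in the library labelled Normal, 16 and 14 were. Over all genes, myeloid cells or T cells led 20.9% and 21.5% of the 15511 and 15127 genes tested. The leading class was the same in both libraries for 39 of 55 genes (70.9%), against 49.3% of 14746 genes overall. By kind, this was so for 10 of 14 chemokine ligands, 3 of 6 chemokine receptors, 3 of 7 interleukins, 19 of 24 interleukin receptor chains and all 4 related genes.

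**Figure D1:**
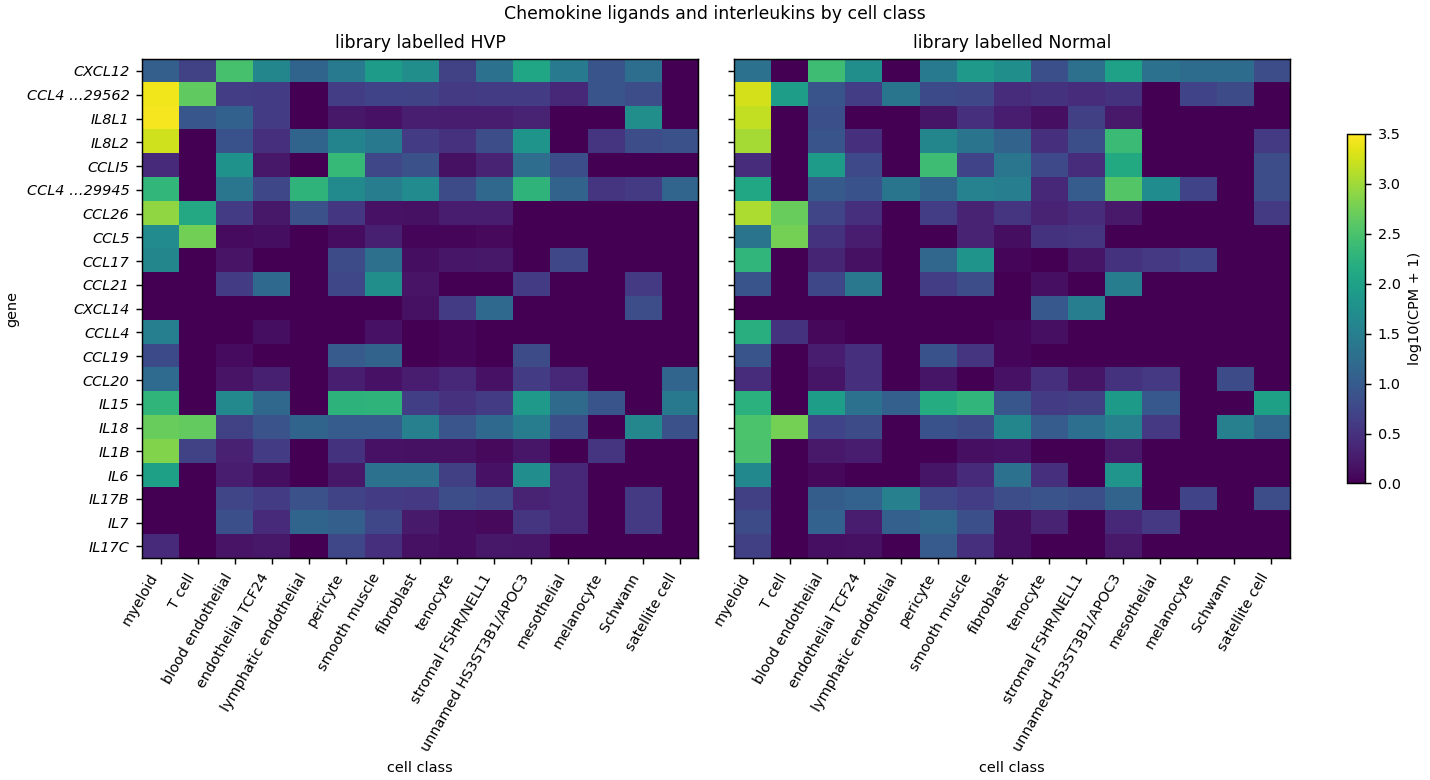
Level of each chemokine ligand and interleukin with at least 20 UMIs in each library (rows) by cell class (columns), as log10(CPM + 1), in the library labelled HVP (left) and that labelled Normal (right). The myeloid column holds the brightest squares (*IL8L1* at 2823 CPM in the library labelled HVP and row a of *CCL4*, ENSGALG00010029562, at 1909 CPM in that labelled Normal), whereas *CXCL12*, *CCLI5* and *IL15* are brightest or nearly so in vessel wall and endothelial columns.

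The chemokine ligands fell into those made by leukocytes and those made by the vessel wall and stroma. The myeloid class carried more chemokine than any other named class, with a summed level of the 17 ligands of 8456 CPM in the library labelled HVP and 6234 CPM in that labelled Normal. T cells followed with 1158 and 1152 CPM. The unnamed leukocyte clusters of the library labelled Normal were high as well, at 6911 CPM in the shallow one and 1587 CPM in the one with mixed markers. In the remaining named classes the sum lay between 19 and 411 CPM in the library labelled HVP and between 23.1 and 386 CPM in that labelled Normal, while the class with high *HS3ST3B1* and *APOC3* reached 400.6 and 877 CPM.

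*IL8L1* and *IL8L2* are the chicken relatives of human *CXCL8*, which draws neutrophils, and they lie next to each other on chromosome 4 of GRCg7b, at 50430778 to 50434071 and 50443423 to 50446598. *IL8L1* reached 2823 (2687 to 2963) CPM in myeloid cells of the library labelled HVP and 1516 (1416 to 1621) CPM in those of the library labelled Normal. *IL8L2* reached 1757 (1651 to 1869) and 1066 (983 to 1155) CPM in the same cells. The copies parted outside the myeloid class. *IL8L1* was nearly confined to leukocytes, with 94.6% of its UMIs in the myeloid class of the library labelled HVP, and 56.7% in the myeloid class and 21.5% and 18.4% in the unnamed leukocyte clusters of the library labelled Normal. It stood at 1.23 and 0.761 CPM in the class with high *HS3ST3B1* and *APOC3* and at 0.655 and 0.560 CPM in pericytes, and 2 Schwann cells of the library labelled HVP held 18 UMIs. *IL8L2* was also found outside leukocytes. It stood at 64.1 (52.4 to 77.7) and 241 (215 to 269) CPM in the class with high *HS3ST3B1* and *APOC3*, which met no marker list. Pericytes had 36.7 (30.2 to 44.1) and 39.2 (30.6 to 49.5) CPM and smooth muscle 25.2 (18.7 to 33.2) and 21.2 (15.8 to 27.8) CPM. In each of these 3 classes and in both libraries the intervals of the copies did not overlap. In cells thinned to 1000 UMIs, *IL8L1* was seen in 47.8% (41.2 to 54.5) and 41.9% (34.3 to 49.8) of myeloid cells, against 0.112% (0.00284 to 0.622) and 0% (0 to 0.728) of tenocytes, a class that should lack it and that had median depths of 7216 and 5067 UMIs against 1620 and 2360 in myeloid cells. Without thinning, the shares were 49.6% and 48.9% in myeloid cells and 0.447% and 0.197% in tenocytes.

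*CCL4*, a chemokine that attracts monocytes and T cells, stands on 2 rows of the gene list, ENSGALG00010029562 and ENSGALG00010029945, called row a and row b here. The RefSeq table holds more than 1 gene on chromosome 19 under this name, so that no position was assigned to either row. Row a was a leukocyte gene, at 2672 (2541 to 2809) and 1909 (1797 to 2027) CPM in myeloid cells and 445 (368 to 533) and 90.2 (64.4 to 123) CPM in T cells. Row b had no UMI in T cells of either library and 207 (172 to 248) and 120.4 (93.5 to 153) CPM in myeloid cells. It was instead found in the class with high *HS3ST3B1* and *APOC3* at 189 (169 to 212) and 366 (334 to 400.2) CPM, in fibroblasts at 47.8 (43.4 to 52.5) and 30.6 (26.3 to 35.3) CPM and, in the library labelled HVP, in lymphatic endothelial cells at 189 (127 to 269) CPM, where only 2 UMIs were counted in the library labelled Normal. In fibroblasts and in the class with high *HS3ST3B1* and *APOC3*, row b exceeded row a in both libraries with intervals that did not overlap. How reads shared by near-identical copies were assigned is not stated, so that the split between the rows is uncertain.

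**Figure D2:**
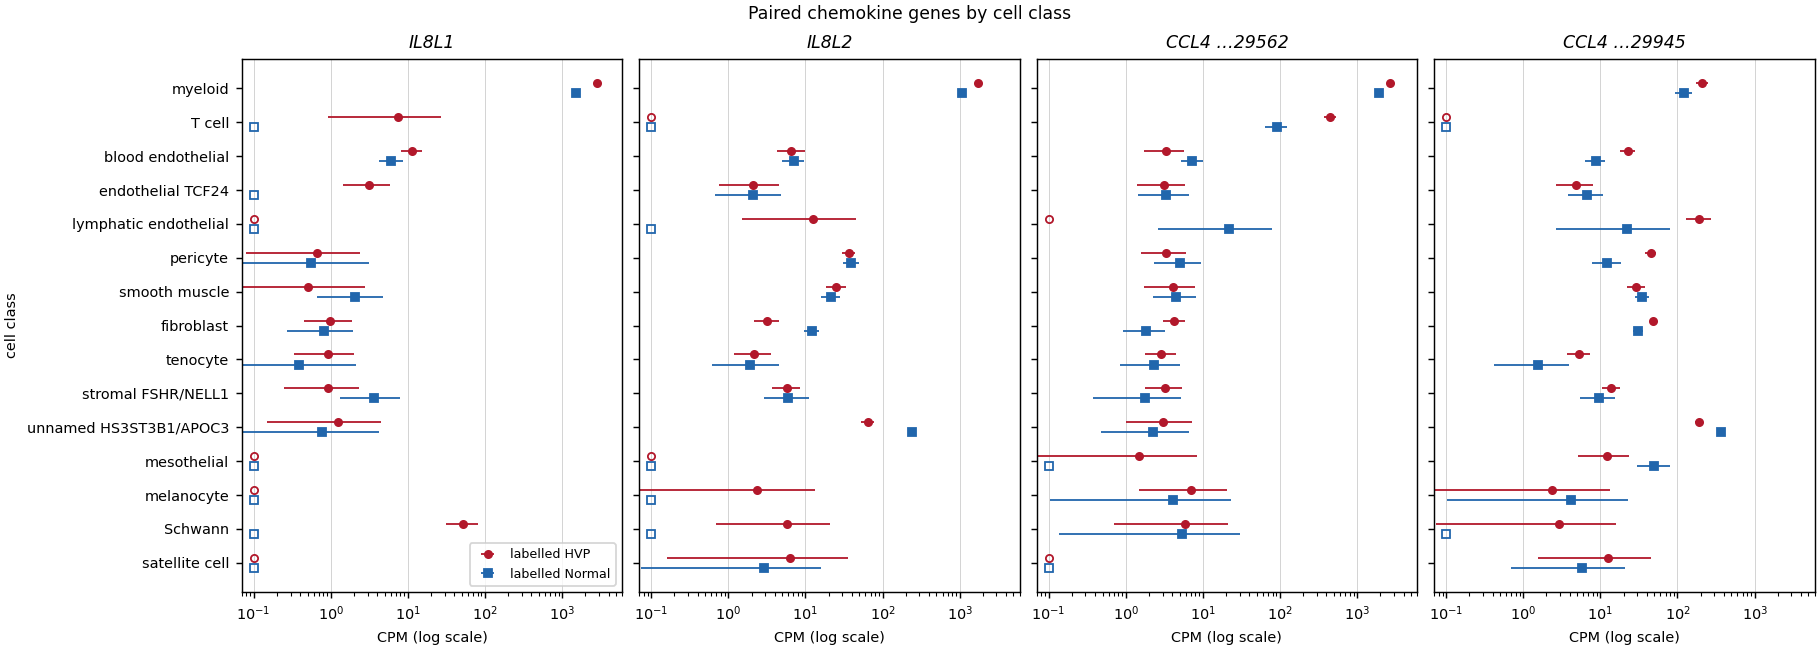
Levels of *IL8L1*, *IL8L2* and both *CCL4* rows (row a, ENSGALG00010029562, and row b, ENSGALG00010029945) in each cell class, in CPM on a log axis, with exact 95% Poisson intervals. Red circles are the library labelled HVP, blue squares that labelled Normal, and open symbols at the left edge are classes with no UMI. All 4 are high in myeloid cells, while *IL8L2* and row b of *CCL4* are also high in the class with high *HS3ST3B1* and *APOC3*.

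*CCL26*, named for a human ligand of CCR3, was a myeloid gene at 839 (766 to 917) and 1164 (1076 to 1256) CPM, with 128 (88.8 to 179) and 478 (416 to 547) CPM in T cells. *CCL5*, which draws T cells and monocytes, was led by T cells, at 573 (486 to 672) and 579 (511 to 655) CPM, a ratio of 1.01 (0.824 to 1.24). It had 48.3 and 21.3 CPM in myeloid cells. Among the chemokine ligands of the rule it had the highest CPM in T cells. Its interval there overlapped that of *CCL4* row a in the library labelled HVP and that of *CCL26* in the library labelled Normal. *CCL5* came from a part of the T cells, since 17 of 101 and 45 of 216 held a UMI. *CCLI5*, a chicken CC chemokine gene at chromosome 19, 5276026 to 5277114, next to *CCL26* at 5279864 to 5280961, had a quite different pattern from its neighbour. *CCLI5* was led by pericytes at 217 (201 to 235) and 257 (234 to 282) CPM, with 59.9 (52.2 to 68.4) and 86.0 (78.4 to 94.2) CPM in blood endothelial cells and 16.6 (11 to 24.2) and 132 (113 to 153) CPM in the class with high *HS3ST3B1* and *APOC3*. It had 1.73 and 1.77 CPM in myeloid cells and none in T cells, melanocytes or Schwann cells.

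Several rarer ligands were gathered in very few cells. *CCL17*, in humans a ligand of CCR4, had 23 and 112 UMIs in 10 and 18 myeloid cells, 39.7 and 198 CPM, and 37 and 155 UMIs in 4 and 15 smooth muscle cells, of which 32 and 72 UMIs were in 1 cell. *CCL21*, which guides cells bearing CCR7 and is known from lymphatic vessels in mammals, had 103 UMIs in smooth muscle of the library labelled HVP, of which 100 were in 1 cell, and no UMI in lymphatic endothelial cells of either library. It had 14.8 (10.7 to 19.9) and 24.1 (18.3 to 31.1) CPM in the endothelial cells with high *TCF24*. *CCL21* was led by smooth muscle in the library labelled HVP. In that labelled Normal it was led by the class with high *HS3ST3B1* and *APOC3*. Its companion *CCL19* likewise had 23 of 24 smooth muscle UMIs in 1 cell of the library labelled HVP. *CXCL13*, the ligand of CXCR5 that draws B cells, had 3 and 47 UMIs in all, with none in smooth muscle of the library labelled HVP. Its copies *CXCL13L2* and *CXCL13L3* had 5 and 29 UMIs and 5 and 15 UMIs in all, and 28 UMIs of *CXCL13* and 17 of *CXCL13L2* in smooth muscle of the library labelled Normal each came from 1 cell. Values that rest on 1 cell say nothing about the class as a whole.

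*CXCL14*, a chemokine of epithelia and stroma, was counted almost only in stroma. It stood at 14.7 (11.3 to 18.8) and 30.0 (22.2 to 39.5) CPM in the stromal class with high *FSHR* and *NELL1* and at 3.21 (1.99 to 4.91) and 8.06 (4.99 to 12.3) CPM in tenocytes. Outside these classes the library labelled HVP held 4 UMIs in fibroblasts and 2 in Schwann cells, and the library labelled Normal held none. *CCLL4*, a chicken CC chemokine at chromosome 19, 894816 to 896162, was counted mainly in myeloid cells, at 31.1 and 156 CPM. *CCL20*, the ligand of CCR6, had 46 and 24 UMIs in all, with 15.5 and 1.77 CPM in myeloid cells.

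*CXCL12*, the chemokine that holds stem cells and leukocytes in their niches, was the most abundant ligand by its total of 2273 and 2271 UMIs. It was led by blood endothelial cells, at 299.6 (282 to 318) and 256 (242 to 269) CPM. The class with high *HS3ST3B1* and *APOC3* followed at 115 (98.7 to 132) and 98.2 (82.0 to 117) CPM, then smooth muscle at 84.7 (72.4 to 98.5) and 74.3 (63.9 to 85.9) CPM and fibroblasts at 53.2 (48.6 to 58.1) and 54.7 (49.0 to 60.9) CPM. The order of these 4 classes was the same in both libraries, although the intervals of the class with high *HS3ST3B1* and *APOC3* and of smooth muscle overlapped in the library labelled Normal. The other endothelial classes held far less, with 39.6 and 53.1 CPM in endothelial cells with high *TCF24* and 2 and 0 UMIs in lymphatic endothelial cells. Thinned to 1000 UMIs, 20.4% (17.5 to 23.6) and 18.3% (16.0 to 20.8) of blood endothelial cells held a *CXCL12* UMI, against 0.336% (0.0693 to 0.979) and 0.198% (0.00501 to 1.10) of tenocytes. The shares before thinning were 44.3% and 41.8%, and 2.57% and 1.97%, at median depths of 4429 and 3859 UMIs in the former and 7216 and 5067 in the latter.

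The receptors of CXCL12 were found in different cells. *CXCR4*, the receptor that carries cells towards CXCL12, was led by T cells at 174 (127 to 231) and 392 (336 to 455) CPM, with 68.4 (60.2 to 77.5) and 22.4 (18.6 to 26.8) CPM in blood endothelial cells and 65.6 (46.4 to 90.0) and 19.5 (9.72 to 34.9) CPM in myeloid cells. It was nearly absent from the mural and stromal classes, with 1.43 and 0.991 CPM in fibroblasts, 1.01 and 0 CPM in smooth muscle and 0.611 and 1.54 CPM in tenocytes. *CXCR7*, now also called ACKR3, binds CXCL12 and removes it without moving the cell. It had 170.1 (140.2 to 205) and 227 (181 to 282) CPM in mesothelial cells, 137 (129.8 to 145) and 204 (193 to 216) CPM in fibroblasts, 208 (143 to 292) and 109 (52.4 to 201) CPM in lymphatic endothelial cells, 147 (135 to 160.1) and 94.7 (86.7 to 103) CPM in blood endothelial cells and 98.2 (87.1 to 110.2) and 104 (91.6 to 118) CPM in endothelial cells with high *TCF24*. Its leading class changed between the libraries, but the intervals of lymphatic endothelial and mesothelial cells overlapped in the library labelled HVP. In leukocytes it stood at 3.77 and 13.5 CPM in T cells and 3.45 and 23.0 CPM in myeloid cells. Within the fibroblasts it was uneven. The fibroblast cluster led by *WNT2* in each library held 223 and 338 CPM, and the cluster led by *LCAT* and *ISM1* held 52.8 and 105 CPM. *CXCL12* was higher in the *WNT2* clusters as well, at 68.8 (61.4 to 76.9) and 64.4 (54.9 to 74.9) CPM against 37.8 (32.4 to 43.9) and 47.5 (40.5 to 55.3). For *CXCL12* the intervals of the clusters overlapped in the library labelled Normal. *IL11RA* and *IL17RD* ran the other way, with 38.5 and 36.0 CPM of *IL11RA* and 33.5 and 25.6 CPM of *IL17RD* in the *LCAT* clusters against 13.3 and 11.2 and 6.20 and 1.94 in the *WNT2* clusters.

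**Figure D3:**
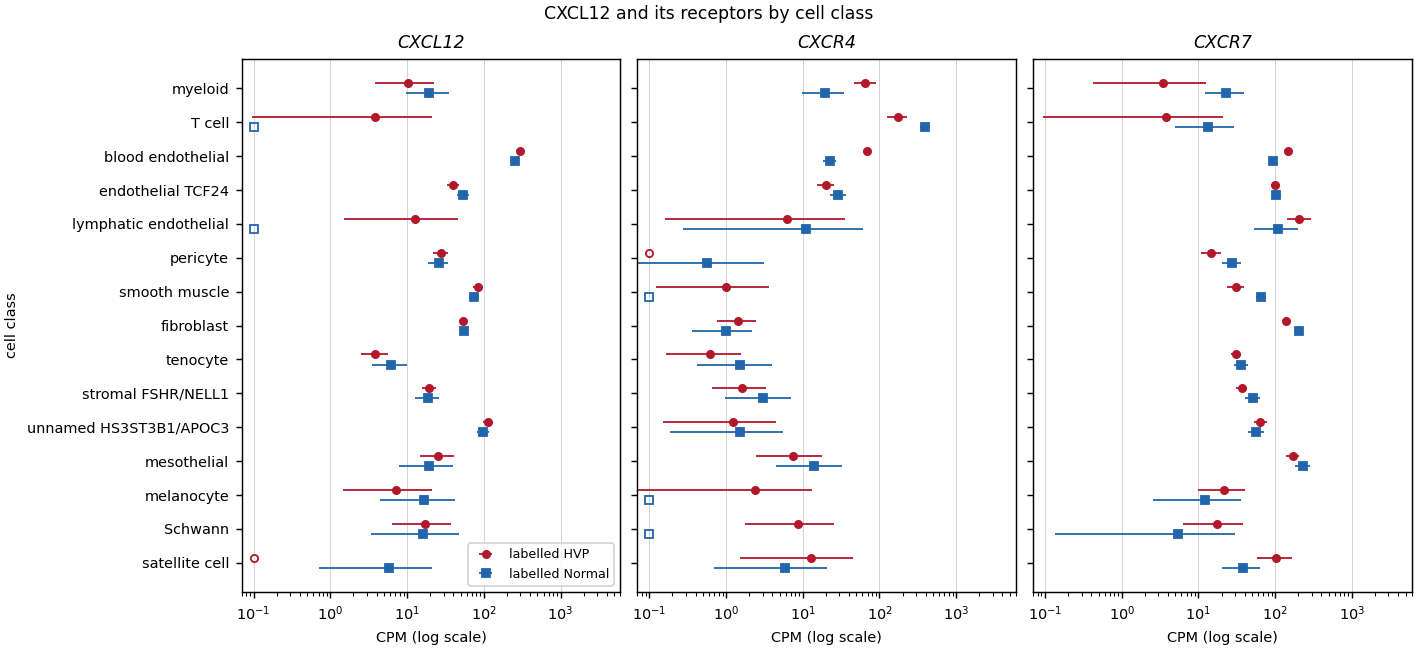
Levels of *CXCL12* and its receptors *CXCR4* and *CXCR7* in each cell class, in CPM on a log axis, with exact 95% Poisson intervals. Red circles are the library labelled HVP, blue squares that labelled Normal, and open symbols at the left edge are classes with no UMI. *CXCL12* peaks in blood endothelial cells, *CXCR4* in T cells and *CXCR7* is spread over mesothelial, fibroblast and endothelial classes.

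The other chemokine receptors were sparse. *CCR2*, the receptor that brings monocytes out of the blood, had 60.4 (42.1 to 84.0) and 74.4 (53.6 to 101) CPM in myeloid cells and 33.9 (15.5 to 64.4) and 65.4 (43.8 to 93.9) CPM in T cells. How reads over overlapping genes were assigned is not stated, so that the counts of *CCR2* are uncertain. *CCR7*, the receptor of CCL19 and CCL21, had 67.3 (47.9 to 92.0) and 26.6 (14.9 to 43.8) CPM in myeloid cells and 26.4 (10.6 to 54.4) and 83.4 (58.7 to 115) CPM in T cells. *CXCR1*, the receptor of the CXCL8 family, had 21 and 45 UMIs in all, of which 12 and 19 were in myeloid cells. *CCR4*, *CCR9*, *CXCR5* and *XCR1* had no more than 8 UMIs in either library. *CCR8L* had 11 and 34 UMIs, *CCR6* had 8 and 15 UMIs and *CCR8* had 7 and 33, mostly in T cells (6 and 21).

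Most interleukins that were found belonged to myeloid cells, the vessel wall and stroma. *IL1B*, an inflammatory interleukin that in mammals is made as a precursor and cleaved by caspase-1, was confined to myeloid cells apart from scattered UMIs. It stood at 677 (611 to 747) and 313 (269 to 363) CPM there, with 92.5% and 79.7% of its UMIs in the class, and no other named class exceeded 3.77 CPM. The shallow unnamed leukocyte cluster of the library labelled Normal held 260.2 (180.2 to 364) CPM. *IL18*, which in mammals is cleaved in the same way and stimulates T cells to make interferon, was found in both leukocyte classes, at 482 (427 to 542) and 321 (276 to 371) CPM in myeloid cells and 460.2 (382 to 549) and 586 (517 to 662) CPM in T cells. Thinned to 1000 UMIs, 24.5% (16.2 to 34.4) and 30.5% (24.1 to 37.4) of T cells held an *IL18* UMI, against 0.431% (0.0890 to 1.25) and 0.771% (0.333 to 1.51) of blood endothelial cells. The shares without thinning were 38.6% and 38.0% against 1.83% and 1.47%, at median depths of 2130 and 1799.5 UMIs in T cells and 4429 and 3859 in blood endothelial cells. No background share was measured in empty droplets, and doublets were kept. Fibroblasts held 32.5 (28.9 to 36.4) and 38.8 (34.0 to 44.1) CPM.

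*IL15*, which sustains memory T cells and natural killer cells, was a gene of the vessel wall as well as of myeloid cells. Its level was 190.1 (171 to 210.3) and 197 (180.3 to 216) CPM in smooth muscle, 181 (166 to 196) and 145 (127 to 163) CPM in pericytes and 197 (162 to 236) and 174 (141 to 212) CPM in myeloid cells. These 3 classes could not be ranked against each other in the library labelled HVP, where their intervals overlapped. Smooth muscle and pericytes together held far more of its UMIs (377 and 552 against 114 in myeloid cells of the library labelled HVP). T cells had no *IL15* UMI in either library, 0 (0 to 13.9) and 0 (0 to 8.32) CPM. Fibroblasts and tenocytes stood at 3.51 and 7.77 CPM and 2.14 and 3.07 CPM. *IL7*, the survival factor of lymphocytes, was led by pericytes in both libraries, at 10.5 (7.17 to 14.8) and 14.0 (9.06 to 20.7) CPM, with 6.05 (3.79 to 9.16) and 11.7 (8.97 to 14.9) CPM in blood endothelial cells.

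*IL6*, which acts on liver, endothelium and leukocytes in acute inflammation, had 96.7 (73.0 to 126) and 42.5 (27.2 to 63.2) CPM in myeloid cells, 50.5 (40.2 to 62.7) and 65.4 (52.3 to 80.8) CPM in the class with high *HS3ST3B1* and *APOC3* and 19.1 (16.4 to 22.1) and 19 (15.7 to 22.8) CPM in fibroblasts. The fibroblast UMIs came from 29 of 1587 and 32 of 1465 cells, with up to 43 and 13 UMIs in 1 cell. In smooth muscle of the library labelled HVP, all 40 UMIs were in 1 cell. *IL17B*, an IL17 family member whose role is less well known, was low and spread over stromal and endothelial classes, with 132 and 182 UMIs in all. *IL17C* had 33 and 30 UMIs, led by pericytes.

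**Figure D4:**
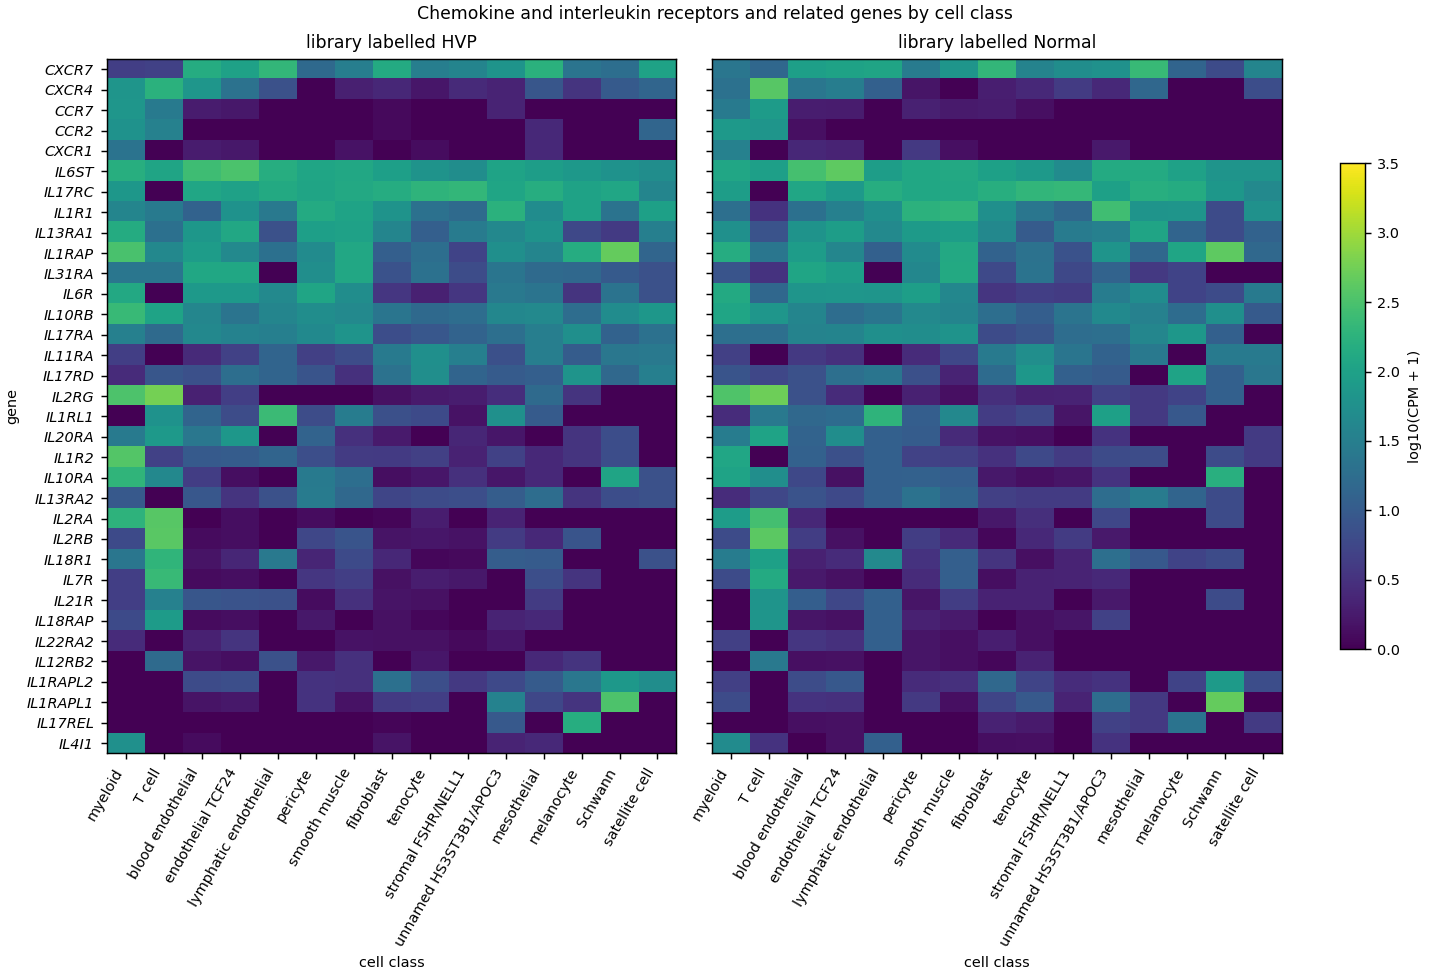
Levels of chemokine receptors, interleukin receptor chains and related genes with at least 20 UMIs in each library (rows) by cell class (columns), as log10(CPM + 1), in the library labelled HVP (left) and that labelled Normal (right). *IL6ST* and *IL17RC* are bright across nearly all columns, the IL2 receptor chains are bright in T cells, and *IL1RAPL1* is bright in Schwann cells. *IL17REL* is brightest in melanocytes, at 152 CPM in the library labelled HVP but only 20.5 CPM in that labelled Normal.

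The IL1 receptor family showed a division by cell type. *IL1R1*, the signalling receptor of IL1, *IL1R2*, a decoy that binds IL1 without signalling, and *IL1RL1*, *IL18R1* and *IL18RAP* lie side by side on chromosome 1 between 133859301 and 134052031. *IL1R1* was led by the class with high *HS3ST3B1* and *APOC3* at 170.1 (151 to 191) and 269 (241 to 298) CPM, followed by pericytes at 136 (123 to 149.6) and 176 (157 to 197) CPM and smooth muscle at 108 (93.9 to 123) and 192 (175 to 210.3) CPM, with 38.0 and 17.7 CPM in myeloid cells. *IL1R2* had the reverse distribution, at 369 (322 to 422) and 115 (88.8 to 147) CPM in myeloid cells and 3.70 and 5.33 CPM, 5.89 and 3.92 CPM and 3.03 and 3.67 CPM in the 3 classes that led *IL1R1*. *IL1RL1*, the receptor of IL33, was led by lymphatic endothelial cells at 245 (174 to 335) and 186 (108 to 297) CPM, against 12.4 (9.02 to 16.6) and 14.3 (11.3 to 17.8) CPM in blood endothelial cells. It was not confined to the lymphatic class, which held 39 and 17 UMIs, against 56 and 102 in smooth muscle. T cells of the library labelled HVP stood at 60.4 (34.5 to 98.0) CPM and smooth muscle of that labelled Normal at 41.6 (33.9 to 50.5) CPM. *IL18R1* and *IL18RAP*, the chains of the IL18 receptor, were led by T cells at 196 (146 to 257) and 96.9 (70.2 to 131) CPM and 83.0 (52.0 to 126) and 65.4 (43.8 to 93.9) CPM. The 5 neighbouring genes thus had 4 different leading classes, each the same in both libraries.

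*IL1RAP*, the shared co-receptor of this family, was highest in Schwann cells, at 465 (396 to 542) and 431 (342 to 536) CPM, ahead of myeloid cells at 314 (270.2 to 363) and 145 (115 to 180.3) CPM and melanocytes at 147 (113 to 188) and 115 (76.4 to 166) CPM. Smooth muscle stood near melanocytes for *IL1RAP*, at 132 (116 to 149) and 129 (115 to 144) CPM, with overlapping intervals. The former value is for its main cluster, of 358 cells. These values rest on 243 and 315 UMIs, against 62 and 28 in melanocytes. The relatives *IL1RAPL1* and *IL1RAPL2* were led by Schwann cells, as *IL1RAP* was. *IL1RAPL1*, a neuronal synaptic adhesion protein in mammals, stood at 329 (271 to 395) and 463 (371 to 572) CPM there, with 48.1% and 43.4% of its UMIs in 18 and 21 cells. *IL1RAPL2* stood at 72.2 (46.7 to 107) and 80.8 (45.2 to 133) CPM. *IL10RA*, the ligand-binding chain of the IL10 receptor, was also raised in Schwann cells, at 109.7 (77.6 to 151) and 162 (109 to 231) CPM, next to 195 (161 to 235) and 106 (81.1 to 137) CPM in myeloid cells, and its partner *IL10RB* was broadly spread, led by myeloid cells at 229.6 (192 to 272) and 112 (85.7 to 143) CPM. The 10 myeloid markers summed to 20.2 and 0 CPM in Schwann cells, with *C1QA*, *C1QB* and *C1QC* at 0 in both libraries, against 4378 and 4321 CPM in myeloid cells. The pan-leukocyte markers, shared by leukocytes of all kinds, summed to 31.8 and 37.7 CPM in Schwann cells, and the T cell markers to 11.5 and 37.7 CPM. What part leukocyte RNA has in these levels was not tested.

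The receptors of the common gamma chain family marked the T cells. *IL2RG*, the shared chain, stood at 585 (496 to 684) and 539 (473 to 612) CPM in T cells and 333 (288 to 384) and 338 (292 to 389.8) CPM in myeloid cells. *IL2RB*, the signalling partner for IL2 and IL15, stood at 407 (334 to 492) and 417 (359 to 482) CPM in T cells and 5.18 and 5.31 CPM in myeloid cells. *IL2RA*, the chain that raises the affinity for IL2, stood at 385 (314 to 467) and 279.6 (233 to 333) CPM in T cells and 179.5 (147 to 218) and 85.0 (62.7 to 113) CPM in myeloid cells. *IL7R* had 230.1 (176 to 296) and 138 (105 to 177) CPM and *IL21R* had 33.9 (15.5 to 64.4) and 63.1 (41.9 to 91.2) CPM in T cells. All 5 were led by T cells in both libraries. *IL20RA*, a chain of the IL20 and IL22 family of receptors, was led by T cells too, at 75.4 (46.1 to 117) and 106 (77.9 to 141) CPM, with 70.3 (61.0 to 80.6) and 51.0 (42.4 to 60.9) CPM in endothelial cells with high *TCF24*.

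The receptor chains of the IL6 family were widespread. *IL6ST*, the shared signalling chain gp130, was the most abundant of them, with 4379 and 4460 UMIs, and it was led by the endothelial cells with high *TCF24* at 326 (306 to 348) and 427 (401 to 454) CPM and by blood endothelial cells at 256 (239 to 273) and 292 (278 to 307) CPM, with no class under 50.7 CPM in the library labelled HVP or 48.5 CPM in that labelled Normal. *IL6R*, the chain that binds IL6, was more restricted, at 128 (100.3 to 160.4) and 135 (106 to 168) CPM in myeloid cells, 112 (100.1 to 124) and 91.9 (78.3 to 107) CPM in pericytes and 75.3 (66.7 to 84.8) and 64.9 (58.3 to 72.0) CPM in blood endothelial cells, against 2.63 and 2.48 CPM in fibroblasts. *IL11RA* had the opposite leaning, with 54.3 (48.8 to 60.2) and 53.3 (44.8 to 63.0) CPM in tenocytes and 1.65 and 2.78 CPM in blood endothelial cells. *IL31RA*, which lies beside *IL6ST* on chromosome Z, stood at 125 (109.5 to 141) and 134 (119.7 to 149) CPM in smooth muscle, 121 (109.9 to 133) and 112 (103 to 121) CPM in blood endothelial cells and 122 (109.6 to 135) and 87.5 (76.1 to 100.2) CPM in endothelial cells with high *TCF24*.

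Among the receptors of the IL17 family, *IL17RC* was found in every stromal and vascular class but not in T cells. It had 5157 and 3456 UMIs, the highest level was 205 (192 to 219) and 212 (190.0 to 235) CPM in the stromal class with high *FSHR* and *NELL1*, and T cells had no UMI in either library. *IL17RA*, its partner for IL17A and IL17F, stood at 63.5 (52.9 to 75.7) and 62.4 (52.9 to 73.1) CPM in smooth muscle and 54.5 (34.6 to 81.8) and 69.8 (40.7 to 112) CPM in melanocytes. *IL17RD*, which in mammals restrains growth factor signalling, was led by melanocytes at 64.0 (42.2 to 93.1) and 107 (69.7 to 156) CPM and followed by tenocytes at 52.9 (47.5 to 58.8) and 69.5 (59.7 to 80.4) CPM. *IL17REL*, a receptor-like gene on chromosome 1 at 20225163 to 20267445, was led by melanocytes in both libraries. They held 81.0% of its UMIs in the library labelled HVP, but 20.8% in that labelled Normal, where fibroblasts held 7 UMIs and melanocytes 5. The class with high *HS3ST3B1* and *APOC3* held 14 and 5 UMIs of *IL17REL*, 17.7% and 20.8%.

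*IL13RA1*, a chain of the IL4 and IL13 receptors, was spread over many classes. It stood at 139.8 (111 to 174) and 56.7 (38.8 to 80.0) CPM in myeloid cells, 123 (111 to 136) and 87.1 (75.7 to 99.7) CPM in endothelial cells with high *TCF24* and 61.7 (44.3 to 83.7) and 108 (76.9 to 148) CPM in mesothelial cells. *IL13RA2*, a decoy for IL13, was low, with 27.2 and 20.2 CPM in pericytes. *IL22RA1*, the decoy *IL22RA2*, *IL12RB2* and *IL5RA* each had between 10 and 31 UMIs in a library. *IL4I1*, an enzyme that degrades aromatic amino acids and is made by antigen-presenting cells, was led by myeloid cells at 55.2 (37.8 to 78.0) and 47.8 (31.5 to 69.6) CPM.

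Ligands and receptors were set side by side in 46 listed pairs, of which 18 had a leading class for both partners in each library. The partners were led by the same class in 5 and by different classes in 13 of the 18, in either library. *IL8L1* and *IL8L2* shared the myeloid class with their receptor *CXCR1* in both libraries. *IL1B* was led by myeloid cells and its signalling receptor *IL1R1* by the class with high *HS3ST3B1* and *APOC3* in both libraries, while the decoy *IL1R2* shared the class of the ligand. *IL15* was high in smooth muscle, pericytes and myeloid cells, and its receptor chains *IL2RB* and *IL2RG* in T cells. *IL7* was led by pericytes and *IL7R* by T cells, and *CXCL12* by blood endothelial cells and *CXCR4* by T cells. For *IL18*, T cells held both the ligand and the receptor chains *IL18R1* and *IL18RAP*. For several receptors the ligand was all but missing. *IL10* had 4 and 1 UMIs against 1112 and 856 of *IL10RB*, *IL17A* and *IL17F* together had 4 and 3 against 5157 and 3456 of *IL17RC*, and *IL13* had 2 and 3 against 1835 and 1381 of *IL13RA1*. Signals from cells outside the suspension are not measured, and RNA levels do not show that a ligand reached a receptor.

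Genes of the same pathways outside the rule were taken from a list and described in the same way. *XCL1*, a ligand of XCR1, was led by T cells at 389 and 597 CPM, and *CX3CR1*, the receptor of CX3CL1, at 102 and 81.2 CPM. *ACKR4*, which scavenges CCL19 and CCL21, was a fibroblast gene, at 86.0 and 89.9 CPM and with 69.3% and 66.7% of its UMIs there. *ACKR2*, a scavenger of inflammatory CC chemokines, was led by blood endothelial cells at 37.1 and 36.9 CPM. *CSF1R*, the receptor that macrophages depend on, and *CSF2RA*, *CSF3* and *CSF3R* were led by myeloid cells, and *CSF1*, the ligand of *CSF1R*, by pericytes, in both libraries. The myeloid class held only 17.6% and 16.0% of the *CSF1R* UMIs, against 85% and 83.9% of those of *CSF3R*, so that most *CSF1R* UMIs lay outside it. Of the transducers of interleukin signals, *STAT4* was led by T cells at 1773 and 1995 CPM, and *SOCS3*, a feedback inhibitor of IL6 signalling, by smooth muscle at 704 and 730 CPM.

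The myeloid class was not of 1 kind. In the library labelled HVP it held a cluster of 105 cells with *IL4I1* and *CCR7*, a cluster of 79 cells led by *C1QA* and *F13A1*, and a shallow cluster of 78 cells with a median of 1128 UMIs. *IL8L1* stood at 3395, 1178 and 5693 CPM in these clusters, *IL8L2* at 2743, 617 and 2323, and *IL1B* at 990.1, 425 and 570.4. *CCL4* row a was more even, at 2670.3, 2789 and 2375 CPM. The cluster led by *C1QA* was thus the lowest of the 3 for *IL8L1* and *IL8L2*, with intervals apart from those of the others. For *IL1B* its interval, 425 (348 to 514), overlapped that of the shallow cluster, 570.4 (429.7 to 742). *IL15* stood at 137 (93.8 to 194), 277 (215 to 350.0) and 135 (71.8 to 231) CPM, where the intervals of the cluster led by *C1QA* and of the shallow cluster overlapped. In the library labelled Normal, the class held a cluster of 130 cells with *S100A12*, *CCLL4* and *CSF3R* and a cluster of 44 dividing cells. The latter had 6 raised myeloid markers, but also the T cell markers *CD3D*, *CD28* and *BCL11B*, and no myeloid marker among its 10 leading genes. *IL8L1* stood at 2216 and 317 CPM in these, *IL1B* at 469 and 48.0 and *CCL4* row a at 2738 and 489.8. The shallow unnamed cluster of the library labelled Normal resembled the shallow cluster of the other library in carrying *IL8L1* (2487 CPM), *IL1R2* (306 CPM, against 788) and *IL1RAP* (383 CPM, against 477), but was left out of the myeloid class, since its median depth was far below that of its library (1016 against 3400.5 UMIs) and, in addition, none of its 10 leading genes was a myeloid marker. The shallow cluster of the library labelled HVP was kept because *SPI1*, a myeloid marker, was among its leading genes, and the dividing cluster because it was not shallow.

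To ask which genes differed between the libraries within a class, the ratio of CPM, labelled Normal over labelled HVP, was taken for each gene with at least 20 UMIs over both libraries in that class, with a conditional binomial 95% interval. A ratio of at least 2 or at most 0.5 was counted as past 2-fold. This was so for 58 of 298 pairs of a gene and a class, 30 higher and 28 lower in the library labelled Normal, which is 19.5%, against 9.41% of all 119311 pairs over all genes. Without the satellite cells, where 47.7% of all genes were past 2-fold, it was 56 of 293 against 8.18% of 115590 pairs. In 31 of the 58, at least 50% of the UMIs of the higher library lay in 5 cells, and in 6 of them in 1 cell, so that the counting interval understates the error. Among the 240 pairs within 2-fold, 59 and 6 were so gathered.

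The myeloid class had the most such genes. Of 32 tested, 3 were past 2-fold higher and 11 past 2-fold lower in the library labelled Normal, against 11% and 5.96% of all genes tested in the class (16.9% in either direction). The median log2 ratio was -0.65 over the 32 genes and 0.04 over all genes tested. *IL1B* stood at 677 and 313 CPM, a ratio of 0.463 (0.386 to 0.555), *IL1R2* at 369 and 115 CPM, a ratio of 0.312 (0.232 to 0.413), and *IL1RAP* at 314 and 145 CPM, a ratio of 0.462 (0.352 to 0.603). The others with 50 UMIs or more were *IL6* at 0.440 (0.261 to 0.721), *IL2RA* at 0.473 (0.329 to 0.673), *IL10RB* at 0.486 (0.354 to 0.661), *IL13RA1* at 0.405 (0.260 to 0.617) and *CCR7* at 0.395 (0.202 to 0.732), and *CXCR4*, *IL1R1* and *CCL5* had fewer. The main chemokines were within 2-fold, *IL8L1* at 0.537 (0.494 to 0.584), *IL8L2* at 0.607 (0.548 to 0.672), *CCL4* row a at 0.714 (0.660 to 0.773) and *CCL26* at 1.39 (1.23 to 1.56). *CCL17* at 5.0 (3.17 to 8.20) and *CCLL4* at 5.02 (3.00 to 8.85) were higher in the library labelled Normal, but 51 of 112 and 37 of 88 UMIs were in 1 cell. A list of MYD88 and NF-kappaB genes, which also held the inhibitors *NFKBIA* and *TNFAIP3*, had 9 genes that could be tested in myeloid cells. Of these, 2 were past 2-fold lower, with a median log2 ratio of -0.39. Of 14 genes listed as responding to tissue dissociation, 10 were in the gene list and 9 could be tested. None was past 2-fold, with a median of -0.24. What part signalling or dissociation has in the ratios was not tested.

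The make-up of the myeloid class moved with these ratios. Counting the shallow unnamed cluster as myeloid left 5 genes lower instead of 11, and leaving out the clusters of dividing cells also left 5 lower and made 5 higher. No share over all genes is given for these altered classes, so the counts do not show whether the excess over all genes holds there. *IL1R2* was below 0.5 under every alternative tried, between 0.258 and 0.433, whereas *IL1B* ranged from 0.275 to 0.692 and *CCR7* from 0.383 to 10.5. What part the different clusters have in the ratios cannot be told apart from a change within the cells.

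**Figure D5:**
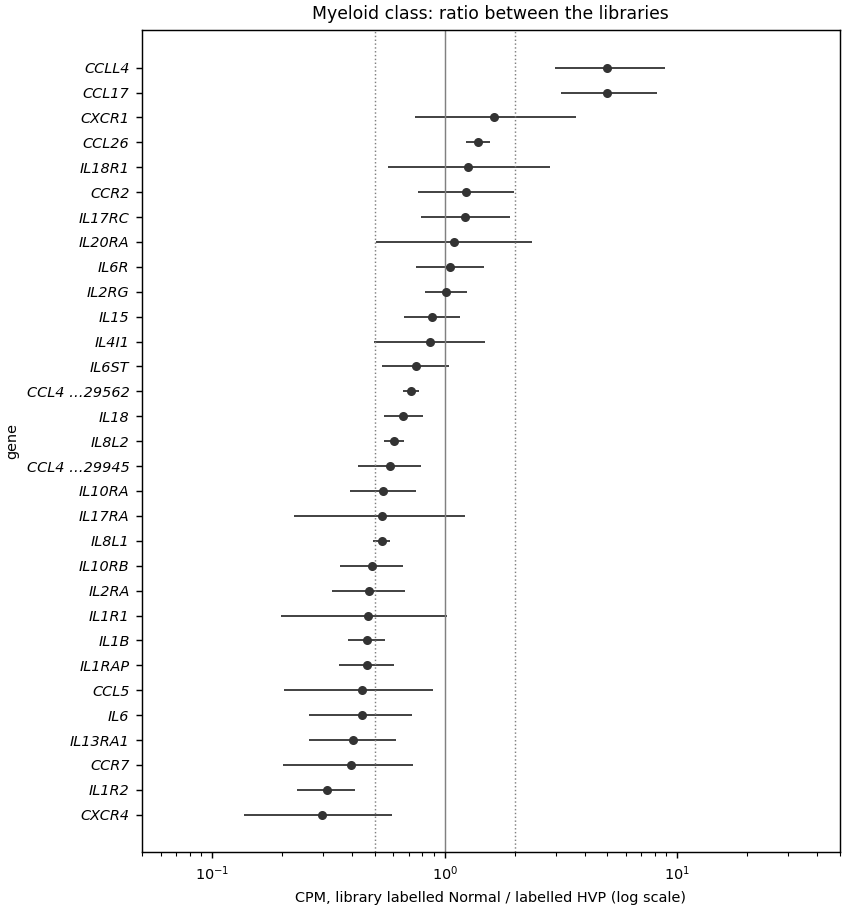
Ratio of CPM in myeloid cells, library labelled Normal over library labelled HVP, on a log axis, for 31 of the 32 genes with at least 20 UMIs over both libraries in the class. Points are ratios, lines are conditional binomial 95% intervals, the solid line marks 1 and the dotted lines mark 0.5 and 2. Of those drawn, 11 genes lie left of 0.5 and 2 right of 2.

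Summed over all T cells, 4 of 22 genes were past 2-fold higher and 3 past 2-fold lower, against 4.39% and 4.91% of all genes (9.31% in either direction). The T cells formed 1 cluster of 101 cells in the library labelled HVP and 2 clusters in that labelled Normal, L0 of 137 cells and L3 of 79 cells, so that values are given by cluster. L3 had *HDC*, the histamine-forming enzyme of mast cells, among its leading genes. It shared the leading genes *NFILZ*, *XCL1* and *KK34* with the cluster of the library labelled HVP. L0 shared *STAT4* with that cluster. *CXCR4* stood at 174 (127 to 231) CPM in the library labelled HVP and at 417 (334 to 515) and 370.0 (296 to 456) CPM in L0 and L3. It was higher in both Normal clusters, and the intervals did not overlap. *CCR7* stood at 26.4 (10.6 to 54.4), 62.4 (33.2 to 107) and 102 (65.4 to 152) CPM, a ratio of 3.16 (1.39 to 8.40) over all T cells, and the interval of the library labelled HVP overlapped that of L0 but not that of L3. *CCL4* row a was higher in the library labelled HVP, at 445 (368 to 533) CPM against 57.6 (29.8 to 101) and 119 (79.1 to 172), again without overlap. Its 118 UMIs in T cells of the library labelled HVP came from 14 of 101 cells, which the counting interval does not reflect. When only cells between 300 and 4000 genes with less than 5% of UMIs from mitochondria were kept, the ratio of this row over all T cells turned to 7.59. The clusters of the library labelled Normal also differed from each other. *CCL5* stood at 573 (486 to 672) CPM, between 336 (262 to 424) in L0 and 795 (685 to 918) in L3. *CCL26* stood at 128 (88.8 to 179) CPM, close to 125 (81.5 to 183) in L0 and well under 791 (681 to 913) in L3, but 91 of its 212 UMIs in T cells of the library labelled Normal were in 1 cell. *IL2RA* stood at 385 (314 to 467), 384 (304 to 478) and 187 (136 to 251) CPM, and *IL2RG* at 585 (496 to 684), 528 (434 to 636) and 549 (458 to 652) CPM with overlapping intervals.

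In blood endothelial cells, 3 of 33 genes were past 2-fold higher and 2 lower, against 4.54% and 2.25% of all genes (6.79% in either direction). The class of the library labelled Normal included cluster L6, 31 dividing cells that also had raised T cell markers (*CD3D*, *CD247*) and lymphatic markers. Without the dividing cells 3 genes were higher and 4 lower, and no share over all genes is given for that altered class. *CXCR4* was lower in the library labelled Normal, at 68.4 and 22.4 CPM, a ratio of 0.328 (0.262 to 0.409), whereas in T cells it was higher there. It was found in 119 of 711 and 76 of 1088 blood endothelial cells, with at most 11 and 8 UMIs in 1 cell, and its ratio lay between 0.246 and 0.398 under the alternatives tried. Its ligand *CXCL12* had a ratio of 0.853 (0.787 to 0.925) and the scavenger *CXCR7* one of 0.644 (0.569 to 0.729) in the same cells. *IL15* stood just short of 2-fold at 1.98 (1.65 to 2.39), and *IL17B* at 2.19 (1.23 to 4.11) just past it, but *IL17B* stood at 0.671 in cells thinned to 1000 UMIs. Row b of *CCL4* was lower at 0.387 (0.264 to 0.560), with 55 of 82 UMIs in 1 cell of the library labelled HVP. Row a was higher at 2.19 (1.12 to 4.60), with 12 and 39 UMIs. It stood at 0.842 with cells limited to 300 to 4000 genes and less than 5% of UMIs from mitochondria. *IL2RG*, a leukocyte gene with 4 and 35 UMIs in these cells, was higher at 5.90 (2.11 to 22.9), and 16 of the 35 UMIs were in L6. The pan-leukocyte markers summed to 18.4 and 44.7 CPM in blood endothelial cells, against 5639 and 5186 CPM in T cells, and their part in the *IL2RG* ratio was not tested.

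In fibroblasts, 3 of 27 genes were past 2-fold higher and 1 was lower, against 3.16% and 1.37% of all genes (4.53% in either direction). The 3 higher genes were *IL8L2* at 3.79 (2.44 to 6.05), *CCLI5* at 3.45 (2.52 to 4.76) and *IL15* at 2.21 (1.38 to 3.58), with 59 and 135 UMIs of *CCLI5* in 9 and 20 cells. Over the alternatives tried, *IL8L2* ranged from 2.72 to 11.9, *CCLI5* from 2.72 to 189 and *IL15* from 1.69 to 16.4. The highest values of *CCLI5* and *IL8L2* came at a resolution of 0.2, where pericytes and the class with high *HS3ST3B1* and *APOC3* were no longer shared classes. Within the fibroblasts, *CCLI5* stood at 0.221 and 22.1 CPM in the clusters led by *WNT2*, and at 12.6 and 22.5 CPM in those with *LCAT* and *ISM1*. Row a of *CCL4* was the lower gene, at 0.425 (0.196 to 0.846). The abundant genes of this class were within 2-fold. *CXCL12* had a ratio of 1.03 (0.891 to 1.18), *IL17RC* of 1.06 (0.974 to 1.15), *IL6ST* of 1.03 (0.923 to 1.14), *IL6* of 0.996 (0.780 to 1.27) and *CXCR7* of 1.49 (1.37 to 1.61). In smooth muscle, 5 of 27 genes were past 2-fold higher and 3 lower, against 2.85% and 3.12% of all genes (5.96% in either direction). *CXCR7* stood at 30.8 and 65.3 CPM, a ratio of 2.12 (1.57 to 2.90), in 53 of 378 and 125 of 708 cells, with a range of 1.24 to 2.84 over the alternatives. The 3 lower genes, *CCL21* at 0.110 (0.0581 to 0.193), *IL6* at 0.0809 (0.0210 to 0.224) and *CCL19* at 0.202 (0.0676 to 0.508), were those whose UMIs in the library labelled HVP lay all or nearly all in 1 cell. *CXCL13* was at least 7.55-fold higher in the library labelled Normal against a floor of 3 UMIs, again from 1 cell. *CCL17* was higher at 3.39 (2.36 to 4.99), with 72 of 155 UMIs of the library labelled Normal in 1 cell, and ranged from 1.09 to 5.46 over the alternatives. *IL15* had a ratio of 1.04 (0.906 to 1.19) and *IL1R1* of 1.78 (1.51 to 2.10).

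In melanocytes, the pigment cells of the trait, interleukin receptor chains summed to 614 and 665 CPM. Leukocytes, Schwann cells, pericytes, smooth muscle, all endothelial classes and the class with high *HS3ST3B1* and *APOC3* were higher in both libraries. Fibroblasts (449.8 and 446 CPM), tenocytes, satellite cells and the stromal class with high *FSHR* and *NELL1* were lower in both. Mesothelial cells were close, at 607 and 679 CPM. The class was small, and 7 genes had enough UMIs to be tested, of which 0 were past 2-fold higher and 1 lower, against 3.89% and 7.55% of all genes (11.4% in either direction). *IL17REL* stood at 64 and 5 UMIs, 152 (117 to 194) and 20.5 (6.67 to 47.9) CPM, a ratio of 0.135 (0.0425 to 0.332), and was found in 23 of 106 and 2 of 79 cells. The other 6, *IL17RA*, *IL17RC*, *IL17RD*, *IL1R1*, *IL1RAP* and *IL6ST*, had intervals that held 1, from 0.644 (0.339 to 1.17) for *IL1R1* to 1.67 (0.935 to 2.97) for *IL17RD*. Chemokine ligands summed to 19 and 28.7 CPM and chemokine receptors to 33.2 and 16.4 CPM in melanocytes. *IL1B*, *IL6*, *IL15* and *IL18* had 3 UMIs or fewer each in the melanocytes of either library.

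In Schwann cells, 0 of 8 genes were past 2-fold, in either direction, against 3.59% and 7.01% of all genes (10.6% in either direction), and *IL1RAP* at 0.927 (0.70 to 1.22) and *IL1RAPL1* at 1.41 (1.05 to 1.88) were among them. In tenocytes 2 of 24 were higher and 1 lower, against 2.06% and 3.15% of all genes (5.22% in either direction), all with 35 UMIs or fewer in each library, while *IL17RC* at 1.07 (0.966 to 1.19) and *IL11RA* at 0.983 (0.802 to 1.20) had intervals that held 1. In mesothelial cells 2 of 13 were higher and 1 lower, against 4.31% and 14% of all genes (18.3% in either direction). In lymphatic endothelial cells 0 of 5 were higher and 1 lower, against 5.52% and 5.82% of all genes (11.3% in either direction). The mesothelial class of the library labelled Normal carried the 3 erythroid markers at 3180 CPM against 4.52 CPM in the other library, and their part in its ratios was not tested. In satellite cells 1 of 5 genes was higher and 1 lower, but the cluster of the library labelled Normal also held skeletal muscle genes, and 19.4% of all genes were past 2-fold higher and 28.3% lower (47.7% in either direction), so that no gene is described.

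In 4 further classes, clusters carried leading genes of other cell types, and their values are compared as clusters. Between cluster 8 of the library labelled HVP and cluster 7 of that labelled Normal, both with high *HS3ST3B1* and *APOC3*, 3 of 24 genes were past 2-fold higher and 1 lower, against 3.98% and 5.82% of all genes (9.8% in either direction). *IL8L2* had a ratio of 3.76 (3.01 to 4.74), *CCLI5* of 7.91 (5.25 to 12.4) and *CCL21* of 9.63 (3.79 to 31.3). The ratio of *CCL21* had a wide interval and was not recomputed under the alternatives, and how its UMIs lay over cells is not given. *CXCL12* at 0.856 (0.679 to 1.08) and *IL6* at 1.29 (0.946 to 1.77) had intervals that held 1. *IL1RAPL1* was the lower gene, at 0.477 (0.277 to 0.792). Between the pericyte clusters, both numbered 5, 1 of 29 was higher and 2 lower, against 2.74% and 2.93% of all genes (5.67% in either direction), with *CCLI5* at 1.18 (1.05 to 1.33) and *IL15* at 0.80 (0.687 to 0.929), and row b of *CCL4* lower at 0.275 (0.167 to 0.433) and *IL10RA* at 0.433 (0.251 to 0.714), with a range of 0.418 to 0.666. Between the endothelial clusters with high *TCF24*, cluster 0 and cluster 2, 2 of 23 were higher and none lower, against 3.02% and 2.62% of all genes (5.64% in either direction). Of these, *IL1RL1* stood at 2.86 (1.56 to 5.49), with a range of 1.33 to 11.4. The erythroid markers stood at 3514 and 79.6 CPM in these clusters, and their part in the ratios was not tested. Between the stromal clusters with high *FSHR* and *NELL1*, cluster 6 and cluster 8, 1 gene of 19 was past 2-fold higher and none lower, against 2.49% and 4.19% of all genes (6.69% in either direction). It was *CXCL14*, at 2.04 (1.38 to 3.00), with a range of 1.53 to 2.75 over the alternatives.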

How the data were processed

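Single cells of the peritoneum were measured in 2 libraries, 1 labelled HVP and 1 labelled Normal, each pooled from 10 birds. According to the submitters' processing notes, the authors used Cell Ranger 7.1.0 with STAR and the GRCg7b genome, and the methods state that mitochondrial genes were added to the annotation. The deposited values are counts of UMIs per gene and cell, not normalised. Whether reads shared by near-identical genes were dropped or split is not stated in the sources used here, and intervals and floors cover counting error only.

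Barcodes with more than 500 genes were kept. Each library was clustered with Seurat 5.3.0 on 2000 variable genes, all 85 genes of the report left out, with 20 principal components at a resolution of 0.5. Leukocyte clusters were clustered again with 10 components. A marker counted for a cluster at a CPM ratio of at least 2 over the other cells and a UMI in at least 10% of its cells, and a name needed 3 markers. UMIs were summed per class and divided by all UMIs of the class. A leading class needed 5 UMIs. With 1 library per group no test between groups was possible, and no p-value is given. Shares of cells were compared after thinning each cell to 1000 UMIs, with Clopper-Pearson 95% intervals. Doublets were called with Scrublet in scanpy 1.11.5 and kept. TMM scaling came from edgeR 4.0.16, used only as an alternative. The ratio interval, the 2-fold call and the leading class were run on simulated Poisson counts. Such counts lack the gathering of UMIs in few cells seen in the data, so they cannot show how the intervals perform there.

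The text names every gene of the rule with at least 100 UMIs over both libraries, every partner of such a ligand or receptor, the 3 genes of the rule with the highest CPM in each named class, and those past 2-fold in a class with at least 50 UMIs, and gives the others by their counts; 1 gene that this would name is not reported here and is counted in the totals only. The members, the gene lists and the marker lists were chosen with earlier results of these data known. Alternatives were the filter on cells, the resolution, joint clustering, leaving out doublets, the total used for scaling, the mean over cells, thinning and the UMI minimum. No sequences are printed.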

Additional observations from a re-analysis of the deposited data

How the results depend on the processing

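The number of genes with the same leading class in both libraries (39 of 55) lay between 27 and 41 under all 12 alternatives tried, and the number past 2-fold within a class (58 of 298) between 45 and 72 except where the minimum of 20 UMIs or the depth was changed. It was 94 of 373 with at least 10 UMIs, 33 of 205 with at least 50, 410 of 797 with at least 1, and 28 of 161 in cells thinned to 1000 UMIs, where fewer genes could be tested. No share over all genes is given beside the counts under the alternatives. They therefore do not show whether the excess over all genes holds there. Of 33 ratios past 2-fold that were recomputed, 12 stayed past 2-fold under every alternative that gave a value, 16 kept their direction but fell within 2-fold under at least 1, and 5 crossed 1. The 12 were *CCL17*, *CCLL4* and *IL1R2* in myeloid cells, *CCL4* ENSGALG00010029562, *CCLI5* and *IL8L2* in fibroblasts and *CCL4* ENSGALG00010029945 in pericytes. The rest were *CXCR4* in blood endothelial cells, *IL17REL* in melanocytes and *CCLI5*, *IL8L2* and *IL1RAPL1* in the class with high *HS3ST3B1* and *APOC3*. That class gave no value in some alternatives. None was made to leave out the myeloid cells with the most UMIs of *CCL17* and *CCLL4*. The 16 were *CCL17*, *CCL21* and *CXCR7* in smooth muscle, *CXCR4* and *IL18R1* in T cells, *IL1B*, *IL1RAP*, *IL2RA*, *IL6*, *IL10RB* and *IL13RA1* in myeloid cells, *CCL4* ENSGALG00010029945 in blood endothelial cells, *IL15* in fibroblasts, *IL10RA* in pericytes, *IL1RL1* in endothelial cells with high *TCF24* and *CXCL14* in the stroma with high *FSHR* and *NELL1*. Ratios changed direction most often with cells limited to 300 to 4000 genes and less than 5% of UMIs from mitochondria (3 of 28). Thinning, a resolution of 1.0, joint clustering and leaving out the T cell cluster L3 each turned 1 ratio around. *CCLI5* in fibroblasts reached 48.2 with the filter on genes and mitochondria and 189 at a resolution of 0.2, where *IL8L2* reached 11.9. *IL15* in fibroblasts reached 16.4 after thinning. At a resolution of 0.2, blood endothelial cells, lymphatic endothelial cells, pericytes and the class with high *HS3ST3B1* and *APOC3* were no longer shared classes. With the filter, both latter endothelial classes (lymphatic and high *TCF24*), mesothelial cells and the class with high *HS3ST3B1* and *APOC3* were not. Which cells the fibroblast class took in at these settings was not tested. With cells limited to 300 to 4000 genes and less than 5% of UMIs from mitochondria, *CCL4* ENSGALG00010029562 had a ratio of 7.59 in T cells and 0.842 in blood endothelial cells, and *CCR7* in myeloid cells had 1.70. *CCR7* in myeloid cells stood at 10.5 at a resolution of 1.0 and at 1.85 when both libraries were clustered together. *IL17B* in blood endothelial cells stood at 0.671 after thinning. Without the T cell cluster L3 of the library labelled Normal, *CCL26* in T cells stood at 0.973. The cause of these shifts was not tested. This last alternative, counting the shallow unnamed cluster as myeloid, leaving out the dividing cells and leaving out the satellite cells were chosen after seeing the data.

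No paired analysis was possible because each group has 1 library, and for the same reason no replicate could be left out. TMM scaling moved the ratios of all genes by 0.539 in satellite cells and by -0.182 in lymphatic endothelial cells on the log2 scale, and by less than 0.1 elsewhere. Depth limits the rarer genes most, since 16 of the 85 had between 1 and 19 UMIs over both libraries and 4 had none.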

Other observations

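Genes that work beside the interleukins were followed in the same cells, from lists chosen with earlier results known. *SOCS1*, a feedback inhibitor of cytokine signalling, was led by melanocytes in both libraries, at 114 CPM in the library labelled HVP and 238 CPM in that labelled Normal. The melanocyte UMIs were 5.76% and 5.08% of all *SOCS1* UMIs. *CISH*, another inhibitor of the same family, was led by smooth muscle at 372 and 370.5 CPM, as was *STAT3*, the main transducer of IL6 signals, at 339 and 292 CPM.

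*LIFR*, the receptor of the IL6 relative LIF, was led by blood endothelial cells at 275 and 338 CPM, and so was *KITLG*, the ligand of KIT that melanocytes and mast cells depend on, at 165 and 212 CPM. Blood endothelial cells held 41.3% and 59.1% of the *KITLG* UMIs. *LIF* itself was led by T cells at 283 and 18.0 CPM, from 75 and 8 UMIs. *CLCF1*, a cytokine that signals through gp130, was led by smooth muscle at 70.6 and 46.1 CPM. *NFKBIA* and *TNFAIP3*, inhibitors of NF-kappaB that are induced by IL1, were led by myeloid cells, at 1084 and 955 CPM and 312 and 239 CPM.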
